A study of Rattus norvegicus with 6 samples.

Results

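RNA polymerases I, II and III are the enzymes that copy the nuclear genome of a cell into RNA. Their genes were taken as the genes whose only symbol in the array's annotation begins with Polr1, Polr2 or Polr3. To these were added Rrn3, Ubtf, Taf1b, Taf1c, Taf1d and Ttf1, which serve polymerase I. The rule found 35 genes among the 14217 genes that the array names by 1 symbol. Of these 35, 29 were counted as subunit genes by their Polr symbol and 6 as factors. These genes were read by 47 probe sets, and each gene was represented by its probe set with the highest mean intensity over the 6 arrays. All 35 passed the filter on low intensity, which left 10354 genes in the test.

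The RNA was that of an immortalized rat line of keratinocytes, the cells that make up most of the epidermis, set up from dorsal skin of young male Sprague_Dawley (CD) rats that the labels call both neonatal and weanling. Of the 6 samples, 3 were left untreated. The other 3 were given 3 Gy of 56Fe ions at 1.01 GeV per nucleon, a heavy charged particle found in space radiation. Each sample was hybridised to 1 Affymetrix RAT 230_2 array. By its title the series asked how these ions change gene expression and the cell cycle. All samples come from 1 immortalized line, and the labels used here give neither the time from irradiation to RNA extraction nor whether replicates were separate cultures. The p-values therefore rest on the spread among these 6 samples alone, and that spread may be technical.

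RNA polymerase I works in the nucleolus and makes the precursor of the large ribosomal RNAs. RNA polymerase II makes messenger RNA and many small nuclear RNAs, and RNA polymerase III makes transfer RNA, 5S ribosomal RNA and other short RNAs. Each enzyme is built around a pair of large subunits that form the catalytic centre. Some small subunits are shared by all the enzymes, and a pair is shared by polymerases I and III. Output of polymerases I and III is known to follow the growth of the cell, and the growth regulator Myc raises it.

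Limma called 207 of the 10354 tested genes higher (2.00%) and 80 lower (0.773%) after irradiation, at an adjusted p under 0.05. None of the 35 polymerase genes passed in either direction. The smallest adjusted p among them was 0.135, for Polr3a. At an unadjusted p under 0.05, 7 of the 35 were lower, against 6.93% of all tested genes, and 1 was higher, against 8.77%. In 11 of the 35, all 3 irradiated values lay below all 3 unirradiated ones, as they did in 10.1% of all tested genes. On the probe sets that represent the genes, none had all 3 irradiated values above the unirradiated ones, as 11.8% of all tested genes did. The 7 lower genes were 4 subunits of polymerase III alone, 2 of polymerase I alone and 1 shared by these enzymes, while the 1 higher gene, Polr2a, belongs to polymerase II. Of the 11 genes without overlap, 4 were subunits of polymerase III alone, 2 of polymerase I alone, 2 shared by these enzymes, 1 shared by all 3 and 2 polymerase I factors. These counts describe the genes and were not tested as a group. Each array reads RNA pooled from many cells, so that fewer cells with a transcript and less of it per cell cannot be told apart.

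Sizes are given as log2 changes, irradiated minus unirradiated, on the log2(intensity + 16) scale, which understates the change of dim genes. The 6 subunits found in polymerase I alone had a median of -0.22, and the 8 found in polymerase III alone had a median of -0.18. The 8 subunits found in polymerase II alone had a median of 0.03, and the 5 shared by all 3 enzymes had a median of 0.0023. Over all tested genes the median was -0.00097. The polymerase I median was -0.13 where all tested probe sets of a gene were averaged. With the arrays quantile normalized, the medians were -0.25 for polymerase I, -0.19 for polymerase III, 0.06 for polymerase II and -0.01 for the shared subunits. A log2 change was below 0 in 12 of the 14 subunits that belong to polymerase I alone or polymerase III alone and in 3 of the 8 of polymerase II alone. Among all tested genes, 50.2% were below 0.

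**Figure D1:**
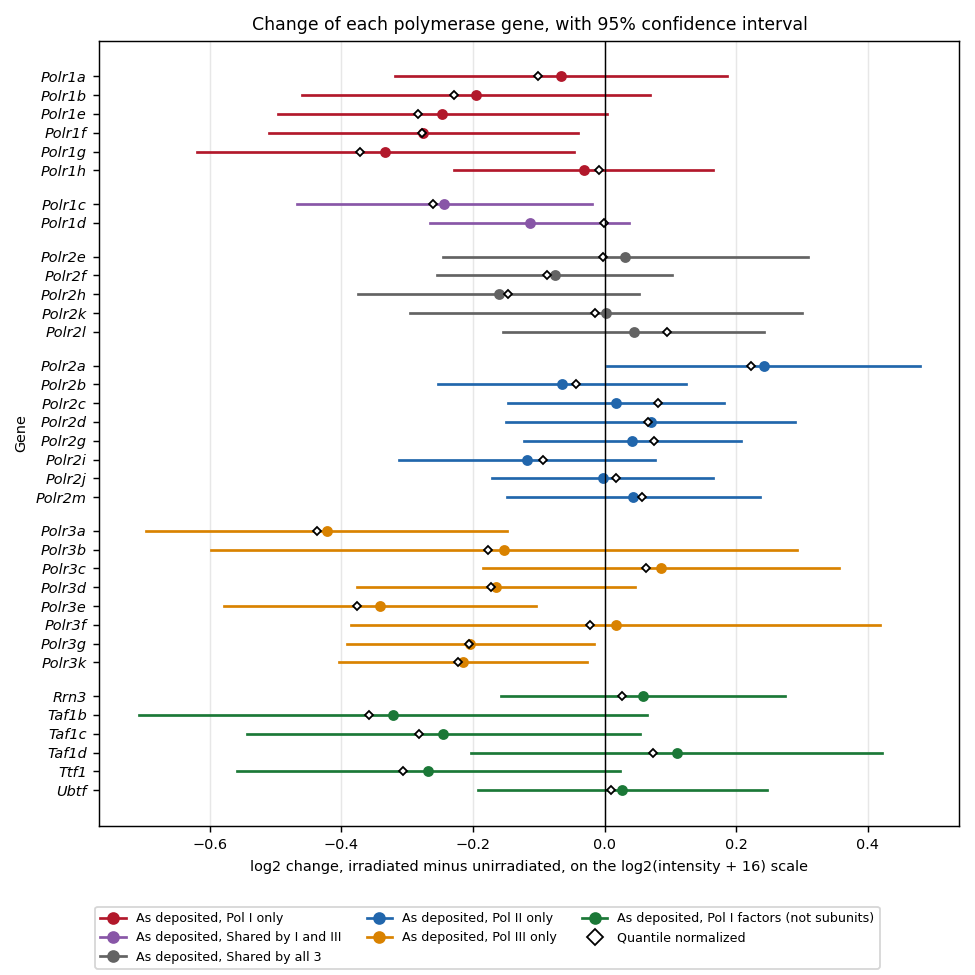
Log2 change (x axis, log2 units, irradiated minus unirradiated) of each of the 35 polymerase genes (y axis). Filled points are the deposited values with bars for the 95% confidence interval of limma, coloured by the enzyme the gene serves, and open diamonds are the changes after quantile normalization. Polr3a has the lowest point (-0.42) and Polr2a the highest (0.24).

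The average of each class was also taken in single arrays, set against its unirradiated mean. These averages use the same probe sets and arrays as the medians above and are no separate evidence. The mean of the subunits of polymerase III alone was -0.15, -0.20 and -0.18 in the 3 irradiated arrays. The 3 unirradiated arrays lay between -0.0080 and 0.0072. The mean of the subunits of polymerase I alone was -0.12, -0.20 and -0.25 in the irradiated arrays, and -0.03 to 0.05 in the unirradiated ones. In both classes every irradiated array lay below every unirradiated one. As deposited, this also held for the pair shared by polymerases I and III, at -0.15, -0.19 and -0.20 against a lowest unirradiated mean of -0.11. With quantile normalization that pair overlapped. The mean of all 35 genes was apart too, at -0.07, -0.10 and -0.13 against a lowest of -0.04. Over all tested genes the irradiated means were 0.02, 0.02 and 0.0036. They overlapped the unirradiated ones, which lay between -0.01 and 0.0068. The polymerase I factors overlapped, with irradiated means of -0.16, -0.04 and -0.12. The mean of the subunits of polymerase II alone was 0.07, -0.0062 and 0.02 in the irradiated arrays. These lay within or just above the unirradiated range of -0.03 to 0.05. The subunits shared by all 3 enzymes overlapped between the groups, with irradiated means of 0.05, -0.0040 and -0.14. With shared subunits counted in, the irradiated means were -0.06, -0.12 and -0.20 for the 13 of polymerase I. They were -0.08, -0.13 and -0.17 for the 15 of polymerase III and 0.06, -0.0053 and -0.04 for the 13 of polymerase II.

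**Figure D2:**
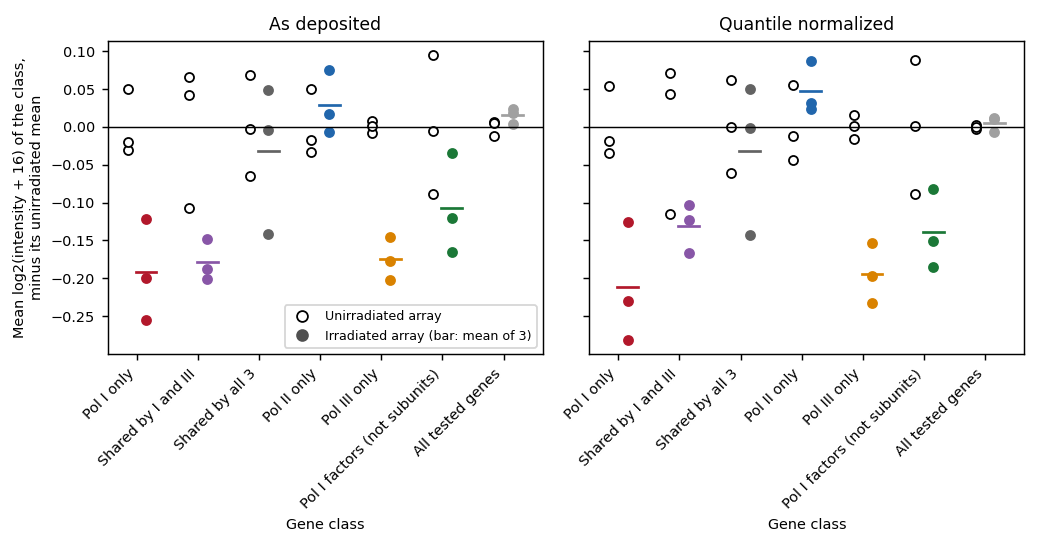
Mean log2(intensity + 16) of each gene class in each array, minus the mean of the 3 unirradiated arrays (y axis, log2 units), by class (x axis), as deposited on the left and quantile normalized on the right. Open points are unirradiated arrays, filled points are irradiated arrays and the bar is the mean of the 3 irradiated arrays; subunits of polymerase I alone and polymerase III alone sit below their unirradiated arrays in both panels.

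Among all tested genes, 10% had a log2 change below -0.22 and 10% had one above 0.27. Of the 35 polymerase genes, 9 lay below the lower bound and 0 above the upper. Those 9 were 3 subunits of polymerase I alone, 2 of polymerase III alone, 1 shared by the pair and 3 polymerase I factors. Among the probe sets that passed the test, the median size of the change was 0.64, above that of every polymerase gene, and the smallest was 0.32, a size that Polr3a, Polr3e and Polr1g exceeded without passing. Brightness moved with the values to some degree: with all tested genes ranked by mean intensity and cut into 10 equal bins, the median change of a bin was at most 0.04 and was -0.07 in the brightest bin. Over the bins that hold the subunits of polymerase I alone the median was 0.03, and over those of polymerase III alone it was 0.01. Over the bins of the subunits of polymerase II alone, many of them bright, it was -0.05. The part of brightness in the class medians was not tested.

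**Figure D3:**
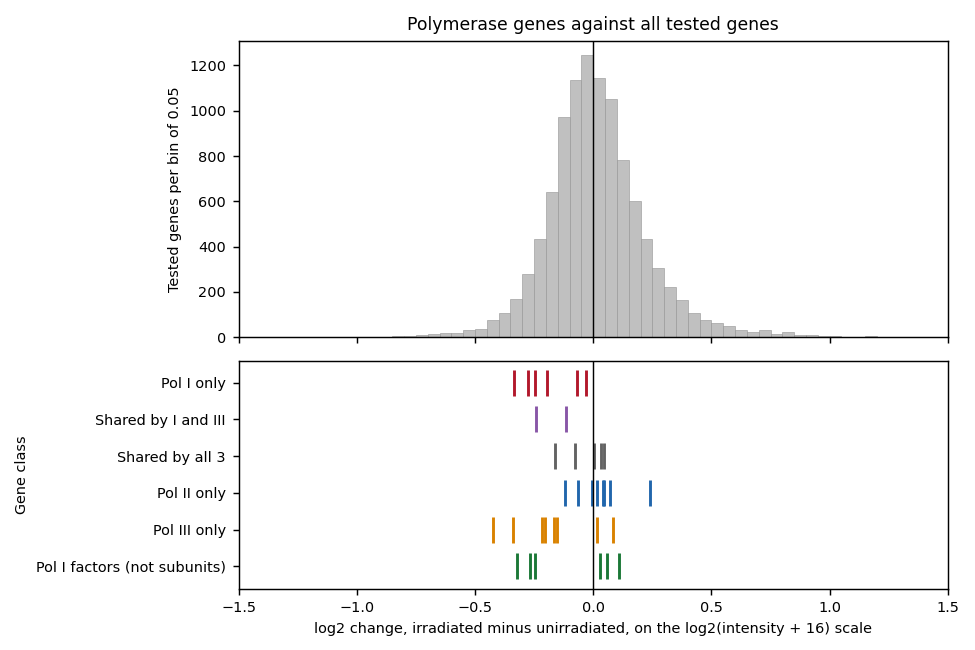
Upper panel, number of the 10354 tested genes (y axis) in bins of log2 change, irradiated minus unirradiated (x axis). Lower panel, each polymerase gene as a tick on the same axis, by class (y axis); ticks of polymerase II subunits gather around 0, while most ticks of polymerase I and III subunits lie to its left.

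The start regions of 3 genes show what lies upstream of the member with the lowest change of polymerase I alone (Polr1g), the highest change of polymerase II alone (Polr2a) and the lowest change of polymerase III alone (Polr3a). Each run holds the 250 bases before the gene's start, 5′ to 3′ on the gene's strand, from RefSeq on rat assembly GRCr8. Polr1g lies on the minus strand at chr1:88138770-88139019, Polr2a on the minus strand at chr10:54977180-54977429 and Polr3a on the minus strand at chr16:95061-95310. Capitals mark matches, on either strand, to the E-box CACGTG that Myc can bind, the ETS core CGGAAG, the CCAAT box CCAAT or the TATA box TATAAA.
Polr1g: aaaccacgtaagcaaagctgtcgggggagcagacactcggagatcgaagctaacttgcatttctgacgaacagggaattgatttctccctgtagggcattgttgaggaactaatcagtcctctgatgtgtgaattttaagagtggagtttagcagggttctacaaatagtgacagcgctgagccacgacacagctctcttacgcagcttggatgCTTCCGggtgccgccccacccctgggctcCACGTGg
Polr2a: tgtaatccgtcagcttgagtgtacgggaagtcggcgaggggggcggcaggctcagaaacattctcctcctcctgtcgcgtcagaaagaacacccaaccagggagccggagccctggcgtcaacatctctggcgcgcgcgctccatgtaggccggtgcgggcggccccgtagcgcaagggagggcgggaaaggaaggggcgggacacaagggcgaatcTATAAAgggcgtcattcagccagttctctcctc
Polr3a: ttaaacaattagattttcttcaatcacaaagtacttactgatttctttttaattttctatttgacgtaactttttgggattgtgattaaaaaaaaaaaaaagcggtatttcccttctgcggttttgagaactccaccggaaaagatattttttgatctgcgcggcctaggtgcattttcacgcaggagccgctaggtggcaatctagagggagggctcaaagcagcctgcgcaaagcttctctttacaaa
Polr1g holds an E-box whose first letter is 7 bases before the start and an ETS core at 36 bases. Polr2a holds a TATA box at 33 bases, and Polr3a holds no match to these letters.

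Of the 35 genes, 32 were matched to a RefSeq start region and those of the other 3 were not analysed here; for Polr1h, which has 2, the first listed was used. The ETS core was present in 17 of the 32 (53.1%), against 28.6% of the 8682 start regions of tested genes and 13.9% of all 33469 regions. It was found in 4 of 6 genes of polymerase I alone, 5 of 7 of polymerase II alone and 1 of 7 of polymerase III alone. The E-box was present in 4 of the 32 (12.5%), against 8.65% of tested genes and 5.59% of all regions. Those 4 were Polr1g, Polr2f, Polr3c and Polr3g. The CCAAT box was found in 6 (18.8%), against 35.8% and 34%, and the TATA box in 2 (6.25%), against 5.93% and 12.9%. These are matches of letters, given as a description.

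Of the catalytic pair of polymerase I, Polr1a had the smaller change, and that of Polr1b was close to the class median of -0.22. Polr1a, the largest subunit, was at 119.5, 119.2 and 126.8 in the unirradiated arrays and at 105.9, 118.0 and 123.4 in the irradiated ones. The groups overlapped, and the log2 change was -0.07 (95% interval -0.32 to 0.19). Polr1b, its partner in the active site, was at 179.7, 186.2 and 170.2 without and at 179.0, 132.0 and 153.9 with irradiation. Irradiated replicate 1 stayed within the unirradiated range, and the log2 change was -0.20 ± 0.12 (SE), with a limma adjusted p of 0.540. Without irradiated replicate 2 the change of Polr1b was -0.10, and without irradiated replicate 1 it was -0.30.

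Polr1g and Polr1e form a pair that helps polymerase I start and elongate. Polr1g was at 137.3, 109.5 and 118.9 without and at 91.2, 105.1 and 83.9 with irradiation. Every irradiated array lay below every unirradiated one, and the means went from 121.9 ± 14.1 to 93.4 ± 10.8 (SD, n = 3), which is -0.33 ± 0.13 on the log2 scale (SE; adjusted p = 0.284 by limma). Its partner Polr1e was at 165.1, 165.0 and 144.7 without and at 127.9, 143.2 and 121.7 with irradiation, again without overlap. The log2 change was -0.25 ± 0.12 (SE), with a limma adjusted p of 0.386.

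Polr1f, part of the stalk through which polymerase I meets the initiation factor Rrn3, was at 498.6, 457.6 and 468.8 without and at 463.7, 351.6 and 361.6 with irradiation. Irradiated replicate 1 lay inside the unirradiated range and the other two did not. The log2 change was -0.28 ± 0.11 (SE; limma adjusted p = 0.278). A dimmer probe set of Polr1f went the other way, at 89.6, 86.1 and 72.9 without and at 90.7, 101.4 and 89.7 with irradiation, where every irradiated array lay above every unirradiated one. Its change was 0.16 (95% interval -0.13 to 0.44), and with the tested probe sets of the gene averaged the change was -0.06. Polr1h, which helps the enzyme cleave its transcript, had a change of -0.03 with a 95% interval from -0.23 to 0.16.

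Polr1c and Polr1d form the assembly platform shared by polymerases I and III. Polr1c was at 355.7, 396.8 and 311.8 without and at 305.4, 301.1 and 281.3 with irradiation. The groups did not overlap, and the log2 change was -0.24 ± 0.10 (SE; limma adjusted p = 0.322). Polr1d was at 4372, 4065 and 4026 without and at 3880, 3725 and 3903 with irradiation, also without overlap. Its log2 change was -0.11 as deposited and -0.00060 with quantile normalization. A second, slightly dimmer probe set of Polr1d had a change of -0.15 (95% interval -0.36 to 0.06).

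**Figure D4:**
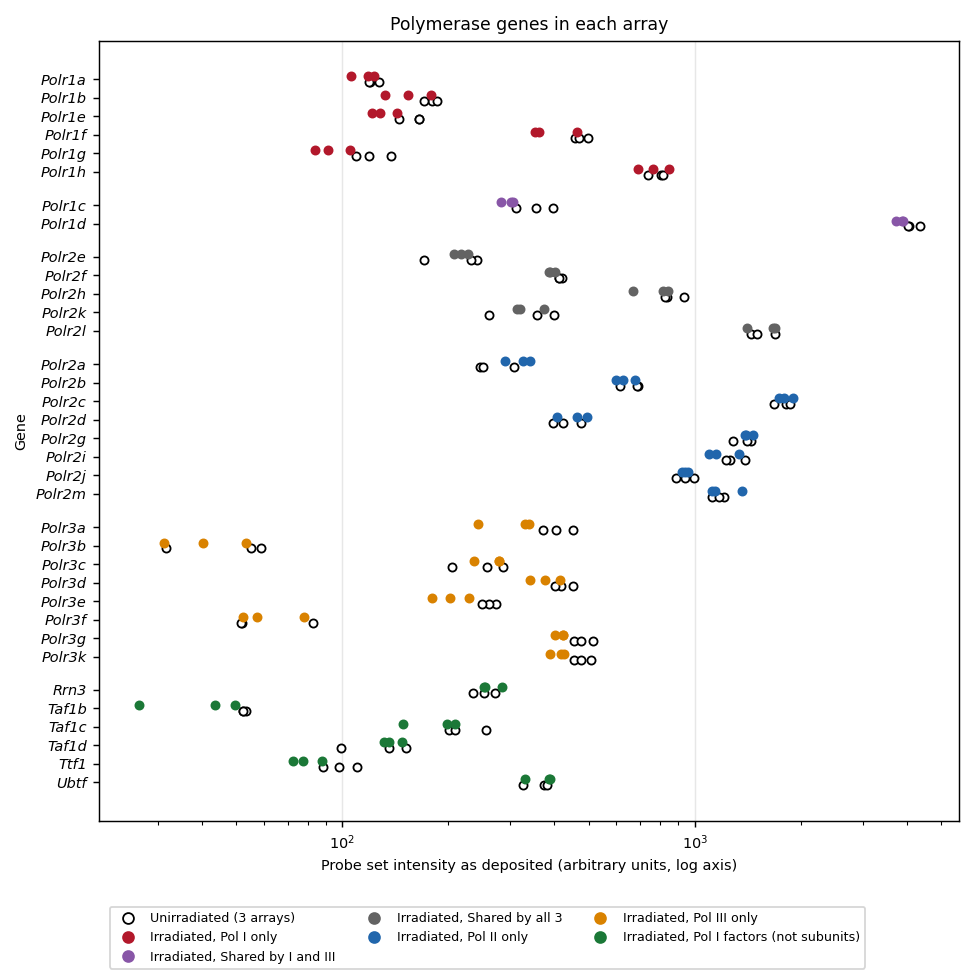
Deposited probe set intensity (x axis, arbitrary units, log axis) of each polymerase gene (y axis) in each of the 6 arrays. Open points are the 3 unirradiated arrays and filled points the 3 irradiated ones, coloured by class; in Polr3a, Polr3e, Polr3g and Polr3k the filled points all lie to the left of the open ones. Positions on the x axis compare arrays within a gene and not genes with each other.

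The lowest change of all 35 genes was in the catalytic subunit of polymerase III. Polr3a was at 370.5, 452.0 and 404.0 without and at 329.6, 242.0 and 337.8 with irradiation. All irradiated arrays lay below the unirradiated ones, the means were 408.8 ± 41.0 and 303.1 ± 53.1 (SD, n = 3), and the ratio of means was 0.741. The log2 change was -0.42 ± 0.13 (SE), with an unadjusted p of 0.0057 and an adjusted p of 0.135 by limma. Without irradiated replicate 2, the lowest of its arrays, the change was -0.28. Polr3b, the other large subunit, was dim and variable, at 58.6, 31.6 and 55.0 without and at 40.3, 31.1 and 53.2 with irradiation. The groups overlapped, and the log2 change was -0.15 with a wide 95% interval from -0.60 to 0.29. Leaving out 1 array moved it from -0.36 (without unirradiated replicate 2) to -0.02 (without irradiated replicate 2).

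Polr3e and Polr3d form a pair that takes part in initiation and termination by polymerase III. Polr3e was at 273.4, 261.2 and 249.2 without and at 202.3, 229.5 and 179.2 with irradiation. No value overlapped, and the log2 change was -0.34 ± 0.11 (SE; limma unadjusted p = 0.0084, adjusted p = 0.164). Polr3d had a change of -0.16 ± 0.10 (SE) with overlapping groups, at 401.7 to 450.9 without and 340.1 to 415.4 with irradiation. Polr3k, the subunit for transcript cleavage, was at 455.0, 507.8 and 474.8 without and at 425.8, 417.4 and 388.1 with irradiation. The groups of Polr3k stood apart, by -0.22 ± 0.09 on the log2 scale (SE; adjusted p = 0.294 by limma).

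Polr3c, Polr3f and Polr3g form the subcomplex that opens the promoter, and the values do not settle a direction for Polr3c or Polr3f. Polr3g was at 516.0, 455.0 and 475.4 without and at 400.4, 424.3 and 423.2 with irradiation, without overlap. The log2 change of Polr3g was -0.20 ± 0.09 (SE; limma adjusted p = 0.321). Polr3c had a change of 0.09, with a 95% interval from -0.19 to 0.36. The dim gene Polr3f had a change of 0.02 as deposited and of -0.02 with quantile normalization, with a 95% interval from -0.39 to 0.42. Both overlapped between the groups.

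Polr2a is the largest subunit of polymerase II and carries the repeated tail that is phosphorylated during transcription. On the probe sets that represent the genes, its log2 change was the highest of all 35. Polr2a was at 246.1, 250.4 and 306.9 without and at 340.2, 289.7 and 326.0 with irradiation. Irradiated replicate 2 lay below unirradiated replicate 3, so the groups overlapped. The log2 change was 0.24 ± 0.11 (SE), with an unadjusted p of 0.0475 and an adjusted p of 0.366 by limma. Polr2b, its partner in the active site, was at 692.7, 688.2 and 612.1 without and at 599.5, 678.6 and 625.5 with irradiation. The groups of Polr2b overlapped, and its log2 change was -0.06.

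On the probe sets that represent the genes, the rest of polymerase II had log2 changes of smaller size than Polr2a. All 8 genes counted as subunits of polymerase II alone overlapped between the groups, as did 8086 of the 10354 tested genes. Polr2i, a small subunit that acts in transcript fidelity, had the second largest size of change, at 1264, 1390 and 1230 without and at 1336, 1100 and 1147 with irradiation, and a log2 change of -0.12. A dim second probe set of Polr2i had a change of -0.37 (95% interval -0.84 to 0.11). Polr2c and Polr2j, the counterparts in polymerase II of the platform formed by Polr1c and Polr1d, had changes of 0.02 (95% interval -0.15 to 0.18) and -0.0031 (-0.17 to 0.17), and the latter was 0.02 with quantile normalization. The stalk subunits Polr2d and Polr2g had changes of 0.07 and 0.04. Polr2m, a protein that associates with polymerase II and is counted here with its subunits, had one of 0.04. A dimmer probe set of Polr2m had a change of 0.28 (95% interval -0.20 to 0.76). The 95% intervals of the 8 genes lay between -0.31 and 0.48 on their brightest probe sets.

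Of the 5 subunits shared by all 3 enzymes, 2 had a log2 change below 0 as deposited and 4 had one with quantile normalization. Polr2h was at 837.5, 935.7 and 825.7 without and at 842.0, 815.0 and 669.6 with irradiation, where only irradiated replicate 3 stood clearly below, with a log2 change of -0.16. Polr2f was at 411.3, 419.3 and 412.2 without and at 389.0, 402.0 and 385.5 with irradiation. Its groups did not overlap, but the change was small, at -0.08 (95% interval -0.25 to 0.10). A dim second probe set of Polr2f had a change of -0.33 (95% interval -0.67 to 0.0067). Polr2l had a change of 0.04, and Polr2e and Polr2k had changes of 0.03 and 0.0023 that turned to -0.0025 and -0.01 with quantile normalization.

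The 6 polymerase I factors split, 3 above and 3 below 0, with a median of -0.11; with a filter at the 60th percentile of intensity, which removes dim genes, the median was 0.03. Taf1b, Taf1c and Taf1d belong to the selectivity factor that places polymerase I at the ribosomal RNA promoter together with the TATA-binding protein. Taf1b was at 52.2, 53.4 and 52.2 without and at 26.4, 43.5 and 49.5 with irradiation. The groups did not overlap, though irradiated replicate 3 came close, and the log2 change was -0.32 ± 0.18 (SE; limma adjusted p = 0.478). Without irradiated replicate 1 the change of Taf1b was -0.14. Taf1c had a change of -0.25 and Taf1d one of 0.11, both with overlapping groups. The change of Taf1c was -0.11 without irradiated replicate 3 and -0.14 without unirradiated replicate 2.

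Ttf1, which ends transcription of the ribosomal RNA genes, was at 87.9, 109.9 and 98.0 without and at 77.2, 87.7 and 72.3 with irradiation. The groups were separated by a narrow gap, and the log2 change was -0.27 ± 0.13 (SE; limma adjusted p = 0.424). Ubtf, which holds the ribosomal RNA genes in an open state, had a change of 0.03 (95% interval -0.19 to 0.25), and 3 dimmer probe sets of it had changes of -0.16, 0.07 and 0.14. Rrn3, the factor that makes polymerase I ready to initiate, had changes of 0.06 and 0.01 on 2 probe sets. Its 95% interval on the brighter one ran from -0.16 to 0.27.

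Limma called none of the other transcription genes listed for comparison. Of 16 tested polymerase III factors, 0 were called higher and 0 lower, against 2.00% and 0.773% of all tested genes. Their median was -0.01 on the log2 scale, and 9 of them were below 0. Lower at an unadjusted p under 0.05, as 6.93% of all tested genes were, were 2 of the 16, Gtf3c4 (-0.29), of the factor that binds transfer RNA genes, and Snapc3 (-0.37), of the complex for small nuclear RNA genes. Snapc3 passed in the fit without unirradiated replicate 3 (-0.54, adjusted p = 0.0425). Gtf3c3 came next by p, with a change of 0.28. Maf1, the repressor of polymerase III, had a change of -0.19, and the TATA-binding protein gene Tbp, which serves all 3 enzymes, one of -0.10; both overlapped between the groups.

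Limma called 0 of 28 general polymerase II factors, 28 elongation factors and 31 Mediator subunits in either direction. Among all tested genes, 2.00% were called higher and 0.773% lower. The medians of these lists were -0.07, 0.0033 and 0.01, and 18, 12 and 14 of their genes were below 0. At an unadjusted p under 0.05, 1, 0 and 1 genes of these lists were lower, against 6.93% of all tested genes, and 3, 2 and 1 were higher, against 8.77%. The smallest p in each belonged to Gtf2e2 (-0.29), Taf13 (0.27) and Taf5 (0.30) of the general factors, to Nelfcd (0.47), Supt5h (0.18) and Paf1 (0.21) of the elongation factors, and to Cdk19 (0.40), Med11 (-0.20) and Med30 (0.27) of Mediator. Of 21 assembly factors that help build the polymerases, 0 passed and the median was -0.06, with Znhit2 (-0.27), Pfdn6 (-0.22) and Pdrg1 (-0.19) first by p. Of 9 genes of mitochondrial transcription, which uses an enzyme of its own, 0 passed and the median was 0.03, with Tfb1m at 0.19, Tefm at -0.17 and the polymerase gene Polrmt at 0.20. Of 7 further nucleolar or polymerase I genes, 0 passed and the median was -0.05, with Nolc1 (-0.23), Ncl (-0.12) and Smarca5 (0.16) first by p. At an unadjusted p under 0.05, 2, 0 and 1 genes of these last 3 lists were lower and 0 were higher, against the same 6.93% and 8.77%. Their counts of 0 at an adjusted p under 0.05 stand against the same 2.00% called higher and 0.773% called lower.

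Myc, which fell, is given because it regulates polymerases I and III elsewhere: its log2 change was -0.51 ± 0.08 (SE; limma adjusted p = 0.0033), and its part in the values above was not tested. The keratinocyte identity of the line was checked on 10 markers. All 10 passed the intensity filter, with a sum of 27494 to 32098 in the unirradiated and 22175 to 24914 in the irradiated arrays. Of these 10 markers, 5 fell (Tp63, Krt15, Krt17, Sfn and, narrowly, Krt14 with adjusted p = 0.0497) and 0 rose, against 0.773% and 2.00% of all tested genes, and their part in the polymerase values was not tested. Of the markers of other skin cells, none of the 4 immune or 2 endothelial genes and 1 of the 4 melanocyte genes passed the intensity filter, and the immune markers summed to 19.4 to 44.1 over all arrays. Of 5 fibroblast markers, Col3a1 fell (-0.46) and Col1a1 had a change of 0.65 without passing, while Col1a2, Dcn and Lum were below the filter. Pairs of arrays correlated at 0.985 to 0.988 within a group and at 0.983 to 0.987 across the groups, on log2 values.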

How the data were processed

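Expression was measured in 6 samples of 1 cell line on Affymetrix RAT 230_2 arrays, 3 unirradiated and 3 irradiated, grouped by the labels' source descriptions. Per the labels' protocols, Trizol was used for extraction and biotin for labelling of polyA RNA. The deposited values are linear intensities, 1 per probe set; per the series' design text they were processed with BRB ArrayTools 3.3.0. The summary method is not given in the sources used here. Means left after trimming 2% of probe sets at each end were 150.04 to 150.05, so the arrays share a scale and were kept as deposited.

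The 57 control probe sets and those whose mean intensity lay below the 40th percentile were left out, which kept 18632 of 31099. Values were taken as log2(intensity + 16) and compared by limma 3.58.1 under R 4.3.3 (lmFit, then eBayes with an intensity trend), two-sided, with no covariate and Benjamini-Hochberg adjustment over all tested probe sets at 0.05. In the polymerase genes the SE of a log2 change had a median of 0.10, and the number of arrays limits this precision. The procedure was run on simulated data. The changes set there were larger than those of the polymerase genes, so power for changes of their size was not tested. Genes were named from the annotation of the platform, in which 20826 probe sets have 1 symbol, 436 several and 9780 none. A gene was its probe set with the highest mean.

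Values in every array are given for the large catalytic subunits and for the 2 members of each class with the largest change, and other members as examples; of each other list, the 3 genes with the smallest p are named, with Tbp, Myc and Maf1. The members, lists and classes were chosen with earlier results of these data known. Start regions were searched on both strands, and palindromic matches were counted once.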

Additional observations from a re-analysis of the deposited data

How the results depend on the processing

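All 35 polymerase genes stayed uncalled by limma in each of the 15 alternatives, with the deposited values scaled, filtered or moderated differently or 1 array left out; with a filter at the 60th percentile the dim members were not tested. Of 522 gene values under these alternatives, 496 kept their sign, and 23 of the 35 genes kept it throughout. Outside the fits that leave out an array, the sign turned with quantile normalization in Polr2e (-0.0025), Polr2k (-0.015), Polr2j (0.017) and Polr3f (-0.023), and with median centring in Polr2k (-0.0090). The fits that leave out 1 array each gave ranges that span 0 for Polr2e (-0.12 to 0.12), Polr2k (-0.17 to 0.12), Polr2l (-0.0028 to 0.13), Taf1d (-0.048 to 0.22), Ubtf (-0.042 to 0.10), Polr1h (-0.10 to 0.038), Polr2c (-0.026 to 0.048), Polr2g (-0.0079 to 0.077), Polr2j (-0.046 to 0.039), Polr2m (-0.045 to 0.096), Polr3c (-0.042 to 0.18) and Polr3f (-0.12 to 0.20).

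The median was -0.13 for subunits of polymerase I alone where the probe sets of each gene were averaged, and with the filter at the 60th percentile it was -0.21 for polymerase III alone and 0.027 for the polymerase I factors. Leaving out 1 array gave medians of -0.26 to -0.15 for polymerase I alone, -0.22 to -0.16 for polymerase III alone, -0.0058 to 0.05 for polymerase II alone, -0.08 to 0.05 for the subunits shared by all 3, -0.23 to -0.15 for the pair shared by I and III and -0.17 to -0.05 for the factors. The number of polymerase genes lower at an unadjusted p under 0.05 was 7, and 4 to 8 without 1 array; it was 4 without unirradiated replicate 1, irradiated replicate 2 or irradiated replicate 3. Among the other transcription genes, 0 to 1 passed without 1 array.

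Limma called 385 probe sets, 280 higher and 105 lower. It called 223 (175 higher, 48 lower) without a filter on low values and 170 (144 higher, 26 lower) without an intensity trend. Without 1 array it called 201 to 286 (151 to 220 higher, 42 to 70 lower), the count moving by over 1.5 times without unirradiated replicate 1 (227), irradiated replicate 1 (229) or irradiated replicate 2 (201). Fewer arrays give less power; other causes were not tested. No paired analysis was possible because the labels give no replicate number shared by the groups.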
